A study of Homo sapiens with 8 samples.

Results

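5-NA is 5-nitrofuryl-acrolein, an aldehyde with a nitrofuran group that corresponds to the nitrofuran-containing part of EerI (Eeyarestatin I), an inhibitor of endoplasmic reticulum (ER)-associated degradation (ERAD). The comparison set the 2 arrays of 293T cells treated with 5-NA at 10 µM for 10 h against the 2 arrays of control cells. These are 4 of the 8 arrays of the study, chosen by their source and description labels, and all 54675 probe sets were compared. The other 4 arrays were of cells given EerI or CBU-028, another compound of the study, at the same dose and time. They served for the estimate of the spread and for direct comparisons with 5-NA. 293T cells derive from human embryonic kidney and express large T antigen of SV40, a viral protein that binds p53. In the study's compound list the number found in the 5-NA array titles belongs to CBU-029, so each 5-NA value rests on the other labels. Whether the control cells received solvent is not stated. The methods give a smaller array type than the one whose probe sets were found here (HG-U133 Plus 2.0).

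The values are RMA values on the log2 scale, and each log2 fold change below is the mean of the 5-NA arrays minus the mean of the control arrays. Group means were tested with limma, and adjusted p is the Benjamini-Hochberg value over all probe sets. Each of 19775 genes was represented by its probe set of highest mean, using probe sets annotated to 1 symbol. The study speaks of duplicates and of a biological replicate, but separate cultures are not named in its labels or methods, so p-values measure the spread between these samples. Pearson's r across probe sets was 0.998 between the control arrays and 0.997 between the 5-NA arrays, with residual SDs of 0.0921 and 0.119. The median SE of a log2 fold change was 0.099, and the number of arrays limits the precision. On the 5-NA arrays ACTB was 14.49 and 14.36 by the 3' probe set and 14.31 and 14 by the 5' one, against 14.60 and 14.63 and then 14.45 and 14.50 on the control arrays. The gap between the ends was thus widest on 5-NA replicate 2, and the part of RNA quality in the results below was not tested. Of 10 markers of this cell line, 7 did not pass the test, among them VIM (13.76 and 13.68 with 5-NA, 13.66 and 13.70 in control). The others were KRT8, INA and NEFL, at 0.29, 0.31 and -0.41 on the log2 fold change scale, and at most 1 of the higher and 1 of the lower markers passed without any 1 of the 4 arrays. None of 7 B cell markers passed, and their values lay between 4.56 and 7.87 on the 4 arrays.

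Cells meet reactive aldehydes and oxidants with several stress programmes. NRF2 is a transcription factor that is held back by KEAP1 and, once freed, pairs with small MAF proteins to raise glutathione and thioredoxin genes and heme oxygenase. HSF1 raises chaperones when proteins in the cytosol misfold. The unfolded protein response (UPR) of the ER acts through PERK, IRE1 and ATF6. PERK and related kinases favour translation of ATF4, which raises amino acid and stress genes. Damaged or misfolded proteins of the ER are drawn out by the p97 ATPase (VCP) and degraded by the proteasome. MAP kinase signals raise immediate early genes such as FOS, and DNA damage raises p53 targets.

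After 10 h with 5-NA, more probe sets were higher than lower at a 2-fold threshold with adjusted p under 0.05. The higher ones numbered 264 (0.483% of all) and the lower ones 71 (0.13%). Of these, 50 and 9 had no single gene symbol. On all of these probe sets both 5-NA arrays lay beyond both control arrays, but such non-overlap alone was common, with 26.2% of genes above and 36.3% below in that sense. By the representative probe set, 105 genes were higher (0.531%) and 33 lower (0.167%). The excess of rises belonged to the large changes. At the adjusted p alone, 1557 genes were higher (7.87%) and 2165 lower (10.9%), and the median gene was at -0.03. Counts of list members are to be read beside these shares. A list near them held about as many calls as genes in general.

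By representative probe sets the gene that rose most was HMOX1, heme oxygenase 1, whose RMA values were 13.07 and 13.01 with 5-NA against 9.82 and 9.86 in control, a 9.2-fold rise (95% interval of the log2 fold change 3.0 to 3.41). A probe set of MAFF that does not represent its gene rose more (3.89) and is described with the NRF2 partners. HSPA6, an Hsp70 gene that is nearly silent in unstressed cells, was at 10.16 and 9.73 with 5-NA and at 6.84 and 6.9 in control, an 8.45-fold rise. ZFAND2A, an arsenite- and heat-inducible gene of a proteasome-associated zinc finger protein, was at 11.91 and 11.71 against 9.31 and 9.27. In each of these genes the gap between the groups was several times wider than the gap between duplicates. GADD45B, of a growth arrest and stress-sensor family, was at 11.58 and 11.20 against 9.05 and 8.96. SESN2, a brake on mTORC1, was at 11.55 and 11.42 against 9.23 and 9.21. The groups were apart in both, and 5-NA replicate 2 was the lower of its pair in each of the 5 genes. The next in size were the histone gene H2AC6 (2.04), the cystine transporter gene SLC7A11 (2.04), the stress transcription factor gene ATF3 (2.03), CHAC1, whose product degrades glutathione (2.02), FOS (1.97) and the decoy death receptor gene TNFRSF10D (1.9). RNA45SN5, the ribosomal RNA precursor, was at 9.96 and 10.12 with 5-NA and at 8.26 and 8.11 in control. Groups that did not overlap were a condition for the choice of these 12 genes, so their separation is no further result.

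Falls were smaller and of more mixed function. IFIT1, an interferon-induced RNA-binding protein gene, was at 6.62 and 6.56 with 5-NA and at 8.05 and 8.17 in control, a 2.87-fold fall. SOX21-AS1, a long non-coding RNA, was at 6.48 and 5.79 against 7.52 and 7.41, so its 5-NA arrays differed by more than those of the other falls. RSAD1, a radical SAM protein gene of mitochondria, was at 9.42 and 9.49 against 10.68 and 10.67. B9D1, a gene of the ciliary transition zone, was at 8.74 and 8.76 against 9.97 and 9.95. The log2 fold changes of the other 8 of the 12 largest falls lay between -1.2 and -1.11. They were ATG10 (an autophagy conjugation enzyme, -1.2), OSGEPL1 (tRNA modification in mitochondria, -1.15), LYSET (lysosomal enzyme sorting, -1.15), C10orf95-AS1 (-1.14), PAPLN (a matrix protein, -1.12), MAP2K6 (a kinase that activates p38, -1.12), MMACHC (vitamin B12 metabolism, -1.12) and MOCS2-DT (-1.11). A probe set of IGFBP5, an insulin-like growth factor binding protein, was lower still, at 6.34 and 6.54 against 8.49 and 8.37 (-1.99), but the gene is represented by a brighter probe set (0.11), and this one was named after its values were seen.

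**Figure D1:**
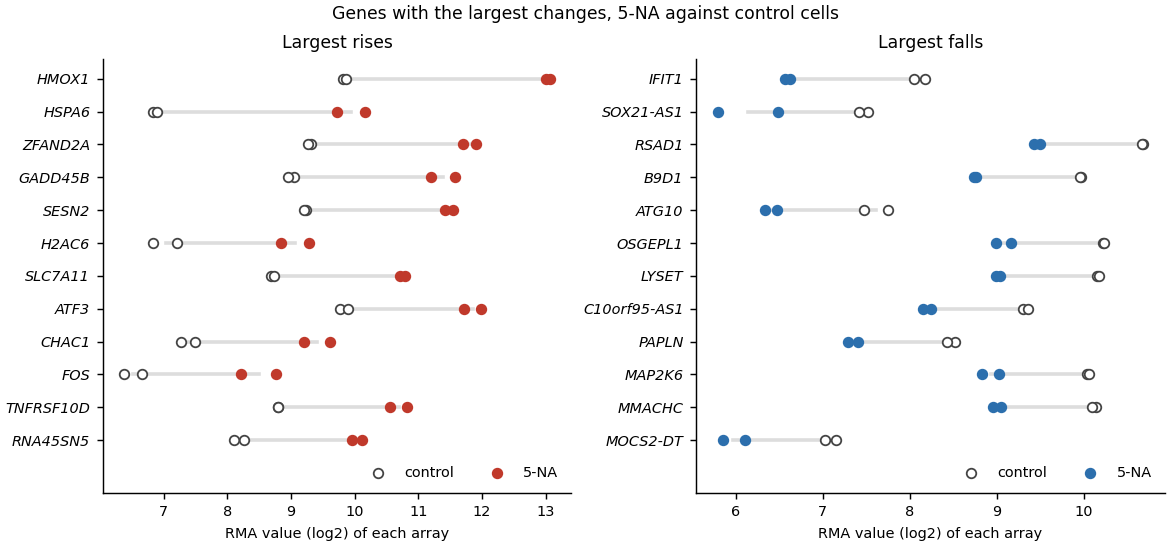
RMA values (log2) of the 12 genes with the largest rises (left) and the 12 with the largest falls (right), 1 point per array, with control arrays as open circles, 5-NA arrays as filled circles and a grey line between the group means. Only genes whose groups did not overlap were eligible. The duplicates lie close together beside the distance between groups, and the widest pair is that of SOX21-AS1 at 5.79 and 6.48.

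**Figure D2:**
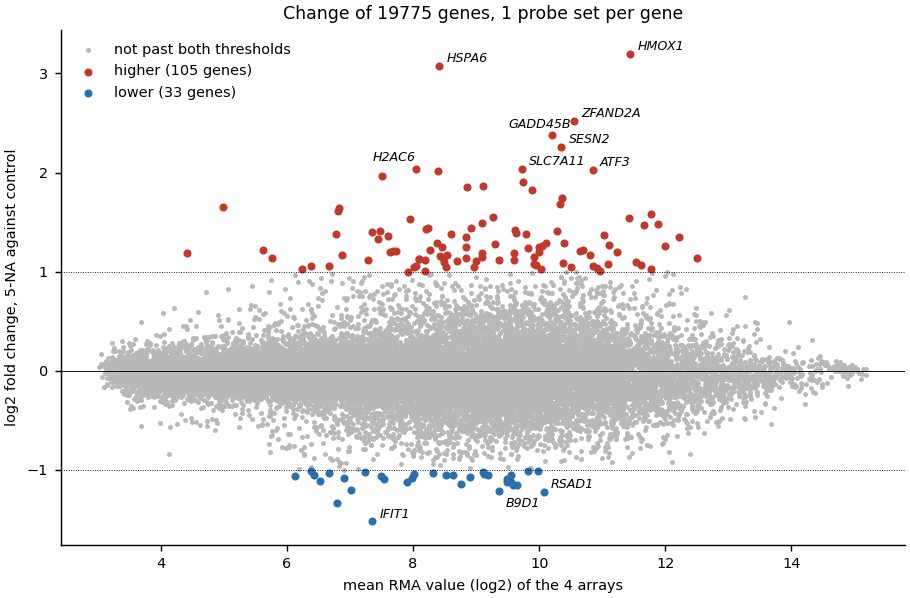
Log2 fold change of 5-NA against control (y axis) by the mean RMA value (log2) of the 4 arrays (x axis) for 19775 genes, each a point, with dotted lines at 2-fold. The 105 genes that rose past both thresholds reach 3.2 (HMOX1), whereas the 33 that fell reach -1.52 (IFIT1).

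A minority of the antioxidant genes rose. Of 29 measured NRF2 targets and glutathione and thioredoxin genes, 7 were higher and none lower, and the median was 0.06. SLC7A11, which imports cystine for glutathione, was at 10.79 and 10.71 with 5-NA and at 8.68 and 8.73 in control. GCLM, the modifier subunit of the enzyme that starts glutathione synthesis, was at 12.57 and 12.66 against 11.12 and 11.16 (2.78-fold, adjusted p = 3.87e-05 from limma). These were the 2 members past 2-fold. The catalytic subunit gene GCLC rose by 0.73, thioredoxin reductase TXNRD1 by 0.81 and the quinone reductase NQO1 by 0.69. Among the 22 members that did not pass, values ran down to -0.21. Of 8 regulators measured, 5 were higher and 1 lower. MAFG, a small MAF partner of NRF2, was at 11.12 and 11.22 against 9.58 and 9.4 (3.21-fold). NFE2L2, the gene of NRF2 itself, was at 10.90 on each 5-NA array against 10.13 and 10.16 (0.75). BACH1, a repressor of HMOX1, rose by 0.63, and NFE2L1, which raises proteasome genes, by 0.44. NFE2L3 was at -0.52 and BACH2 at 0.32 (adjusted p = 0.0785 from limma). KEAP1 was at 11.23 and 11.15 with 5-NA and at 11.15 and 11.16 in control, so its groups overlapped (95% interval of the log2 fold change -0.14 to 0.21). MAFF had probe sets of unequal size of change: its representative was at 7.55 and 7.45 against 7.04 and 7.06 (0.45), and another at 8.99 and 8.53 against 5.03 and 4.71 (3.89). Calls were lost when 1 array was left out for MAFF without control replicate 1 (adjusted p = 0.0567 from limma), for NFE2L1 without control replicate 1 or 2 (0.0723 and 0.053) and for NFE2L3 without control replicate 1 or either 5-NA array (0.0605 to 0.164). The higher regulators numbered 3 without control replicate 1.

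The antioxidant response element, written TGACNNNGC and searched on both strands, was present in the 250 bases before the start of 3 of the 6 higher members with a promoter in RefSeq (GCLM, TXNRD1 and ME1), in 7 of the 21 measured members with a promoter (33.3%) and in 11% of all 27305 promoters. GCLM is shown because it is the member with a match that rose most. Its stretch, chr1:93909431-93909680 of GRCh38.p14 on the minus strand, has the match in capitals, on the strand opposite to the letters above.
GCLM: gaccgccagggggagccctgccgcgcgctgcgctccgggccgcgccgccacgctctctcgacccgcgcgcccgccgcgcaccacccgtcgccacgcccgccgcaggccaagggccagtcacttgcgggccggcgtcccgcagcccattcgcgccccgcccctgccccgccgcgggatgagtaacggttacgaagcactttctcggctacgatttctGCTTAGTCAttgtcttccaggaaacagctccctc

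Heme and iron genes moved both ways: 4 of 19 were higher and 4 lower, with a median of -0.08. Beside HMOX1, the higher ones were ALAS1, the first enzyme of heme synthesis (0.84), the ferritin light chain gene FTL (0.49) and NCOA4, which delivers ferritin to lysosomes. ALAS1 was at 11.43 and 11.28 with 5-NA and at 10.52 and 10.51 in control. The lower ones included PPOX, a late enzyme of heme synthesis (8.72 on both 5-NA arrays against 9.37 and 9.36, -0.64), and HMOX2, the constitutive heme oxygenase (-0.53). HMOX2 lost its call without either control array or 5-NA replicate 2 (adjusted p = 0.0572 to 0.072 from limma), and the lower members were then 1 or 2 without any 1 of the 4 arrays.

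Some metallothioneins, which bind zinc and copper and are raised by many metals and oxidants, were lower. In the list of 12 metallothioneins and zinc exporters, 5 were lower, all of them metallothioneins, the median was -0.11, and 2 were higher, MTF1, the zinc-sensing factor that drives metallothioneins (0.66), and SLC30A1, a zinc exporter (0.46). Another probe set of SLC30A1 changed more, at 9.3 and 9.21 with 5-NA against 8.19 and 8.08 (1.12), past both thresholds. MT1X was at 11.20 and 11.47 with 5-NA and at 12.09 and 12.08 in control (-0.75). MT1H was at 10.56 and 10.71 against 11.29 on both control arrays (-0.65), and MT1F was at -0.62. Their probe sets may share probes with other metallothioneins, so the members cannot be told apart with certainty. Without 5-NA replicate 1, control replicate 1 or control replicate 2 only 2 metallothioneins passed, and without either control array neither of the 2 higher genes did. MTF1 and MT1F each lost their call in those 3 fits (adjusted p = 0.071 to 0.107 from limma), and SLC30A1 without control replicate 1 or 2 (0.0552 and 0.0605).

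Heat shock genes included some of the largest rises. Of 26 measured, 10 were higher (38.5%), 6 of them past 2-fold, and none was lower, with a median of 0.13. Besides HSPA6 and ZFAND2A, the co-chaperone gene DNAJB1, which hands clients to Hsp70, was at 13.07 and 12.72 with 5-NA and at 11.51 and 11.57 in control (1.35). HSPA1L and HSPA2, Hsp70 genes known for their expression in testis, were at 9.41 and 9.4 against 8.12 and 8.41 (1.14) and at 8.75 on both 5-NA arrays against 7.65 and 7.62 (1.12). Every probe set past both thresholds had groups that did not overlap, so the separation here is no further result. In HSPA6, ZFAND2A and DNAJB1 5-NA replicate 1 was the higher of the pair. The other probe set of HSPA6 was at 8.83 and 8.45 against 6.68 and 6.87 (1.87), a smaller change. HSPA6 is close in sequence to the pseudogene HSPA7, so part of its signal may come from there. The probe sets of HSPA1A, HSPA1B and HSPA8 carry no single symbol and were not analysed here.

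A heat shock element core, GAANNTTC on both strands, was found in the 250 bases before the start of 4 of the 10 higher heat shock genes (HSPA1L, HSPA6, DNAJB6 and SERPINH1), in 8 of the 23 measured members with a promoter (34.8%) and in 5.85% of all promoters. The share among the higher members was thus close to that among all measured ones. HSPA6 is shown because it rose most among them and holds 2 matches, in capitals, within chr1:161524290-161524539 of GRCh38.p14 on the plus strand.
HSPA6: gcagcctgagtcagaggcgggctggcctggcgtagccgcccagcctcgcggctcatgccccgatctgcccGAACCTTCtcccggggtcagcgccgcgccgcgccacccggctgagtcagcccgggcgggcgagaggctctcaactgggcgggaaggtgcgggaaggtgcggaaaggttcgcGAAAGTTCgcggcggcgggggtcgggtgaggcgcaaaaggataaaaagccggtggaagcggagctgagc

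Genes of protein disposal moved less. In the list of 17 ubiquitin genes, autophagy receptors and ATG8 genes, 6 were higher and none lower, with a median of 0.05. The autophagy receptor gene SQSTM1 (p62) was at 11.57 and 11.36 with 5-NA and at 10.44 and 10.48 in control (1.01). MAP1LC3B and GABARAPL1, which encode ATG8 proteins of the autophagosome membrane, rose by 0.91 and 0.72, and ULK1, the kinase that starts autophagy, by 0.58. TAX1BP1, another receptor, was at 0.53 and lost its call without control replicate 1 or 2 (adjusted p = 0.0588 and 0.0646 from limma). Probe sets of SQSTM1 disagreed: 1 of its 5 was at -0.63, with values of 5.52 and 5.14 against 6.11 and 5.82. Of 29 proteasome subunits 2 were higher (6.9%, beside 7.87% of all genes), PSMD12 (0.56) and the ubiquitin receptor ADRM1 (0.26). The list median was 0.03. Without any 1 of the 4 arrays ADRM1 did not pass (adjusted p = 0.0908 to 0.25 from limma), which left 1 subunit.

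PERK and ATF4 targets were the list with the highest share of members that passed. Of 31 measured, 25 were higher (80.6%), 12 of them past 2-fold, and 1 was lower, with a median of 0.8. ATF3 was at 11.99 and 11.72 with 5-NA and at 9.77 and 9.89 in control. STC2, a secreted glycoprotein hormone, was at 9.84 and 9.72 against 7.94 and 7.91 (3.6-fold). PPP1R15A (GADD34), the phosphatase subunit that reverses the block of translation, was at 10.90 and 10.70 against 8.97 and 9.0 (3.53-fold). CHAC1 was at 9.61 and 9.21 against 7.28 and 7.49, the widest spread of the leading members. DDIT3, the gene of the pro-apoptotic factor CHOP, was at 10.16 and 9.92 against 8.5 and 8.49 (1.55), and was named after its values were seen. ATF4 itself was at 13.78 and 13.60 against 13.17 and 13.25 (0.48, adjusted p = 0.00802 from limma), a call that was lost without control replicate 1 or 5-NA replicate 1 (0.078 and 0.0528). The amount of ATF4 protein is known to be set mainly in translation. The lower member was CBS, which makes cystathionine (-0.43), and without either control array or 5-NA replicate 1 it did not pass.

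A composite site of C/EBP and ATF factors, searched as TTGCATCA on both strands, was found in the promoter of 1 of 22 higher members, CHAC1, in 2 of 25 measured members and in 0.82% of all promoters. CHAC1 is shown as that member, with the match in capitals, within chr15:40953221-40953470 of GRCh38.p14 on the plus strand.
CHAC1: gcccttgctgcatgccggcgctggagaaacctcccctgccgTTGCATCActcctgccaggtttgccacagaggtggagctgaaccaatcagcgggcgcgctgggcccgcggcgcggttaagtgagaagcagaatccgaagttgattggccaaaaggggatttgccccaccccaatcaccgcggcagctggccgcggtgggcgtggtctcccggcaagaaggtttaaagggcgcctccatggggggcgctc

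Amino acid transporters and tRNA synthetases, both known to hold ATF4 targets, behaved unequally. Of 18 transporters 7 were higher (38.9%, beside 7.87% of all genes), 3 past 2-fold, and 2 lower (11.1%, beside 10.9%). Their median was 0.16. SLC3A2, the heavy chain that SLC7A11 and SLC7A5 need at the membrane, was at 12.30 and 12.08 with 5-NA and at 10.69 and 10.61 in control (2.9-fold). SLC1A4, a neutral amino acid exchanger, rose by 1.29 and the leucine transporter gene SLC7A5 by 1.0. SLC38A2, which takes up glutamine and alanine, rose by 0.66. The lower 2 were SLC7A2 (-0.44) and SLC38A4 (-0.36), of which at most 1 passed in the fits that left out 1 array. Of 17 cytosolic tRNA synthetases 2 were higher (11.8%, beside 7.87% of all genes), CARS1 (0.64) and TARS1 (0.43). The lower one (5.88%, beside 10.9%) was FARSA (-0.69, 11.76 and 11.54 against 12.32 and 12.35), and the median was 0.00. TARS1 lost its call without either control array or 5-NA replicate 2 (adjusted p = 0.0571 to 0.0771 from limma).

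The ER chaperone arm of the UPR was raised in part. Of 24 ER chaperones and folding enzymes 7 were higher and 1 lower, with a median of 0.15. DNAJB9 (ERdj4), a co-chaperone of BiP, was at 10.88 and 10.46 with 5-NA and at 9.42 and 9.39 in control (2.4-fold). ERN1, the gene of the sensor IRE1, was at 9.19 and 8.88 against 7.98 and 7.89 (2.15-fold). XBP1, whose messenger IRE1 splices, was at 10.86 and 10.81 against 9.9 and 9.99 (0.89), and DNAJC3 (p58IPK) was at 0.78. HSPA5, the gene of BiP, was at 13.73 and 13.59 against 13.11 and 13.23 (0.49), and did not pass without control replicate 1 (adjusted p = 0.0732 from limma). Higher members numbered 4 without control replicate 1, and the lower member, SIL1 (-0.34), passed only without 5-NA replicate 1. Of 28 ERAD and p97 genes 4 were higher and none lower, with a median of 0.12. HERPUD1, an ER membrane scaffold for ERAD, was at 12.27 and 12.03 against 11.05 and 11.12 (2.09-fold). DERL2 (0.42), DERL1 (0.36) and SELENOS (0.32), all parts of the channel complex that p97 docks to, changed less, and 1 or 2 members of the list passed without any 1 of the 4 arrays. DERL2 did not pass without control replicate 1 or 2, nor DERL1 and SELENOS without any 1 of the 4 arrays (adjusted p = 0.0531 to 0.136 from limma). VCP, the gene of p97, was at 12.05 and 11.95 with 5-NA and at 11.73 on both control arrays, a log2 fold change of 0.27 (95% interval 0.08 to 0.45, adjusted p = 0.057 from limma). It passed after renewed quantile normalisation and with a trend in the prior variance (adjusted p = 0.0381 and 0.00835 from limma), and in the other alternatives adjusted p was 0.0576 to 0.24. NSF, a related ATPase, was at 11.43 and 11.42 against 11.59 and 11.53 (-0.14, adjusted p = 0.339 from limma).

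Immediate early genes, AP-1 subunits among them, were higher as well, 17 of 29 measured, with 5 past 2-fold and none lower, and their median was 0.48. FOS was at 8.76 and 8.22 with 5-NA and at 6.66 and 6.38 in control (3.91-fold). FOSL1 (FRA-1), another AP-1 subunit, was at 9.0 and 8.89 against 7.52 and 7.5 (2.71-fold). EGR1, a zinc finger factor of the serum response, was at 8.5 and 7.61 against 6.76 and 6.54. The 5-NA arrays of EGR1 were the widest pair among the genes named from this list. IER3 rose by 1.38 and KLF4 by 1.25. JUN, named after its values were seen, was at 13.15 and 13.26 against 13.22 and 13.24, so its groups overlapped in range. Of 18 MAP kinase phosphatases and Sprouty genes, which turn MAP kinase signals off, 7 were higher and 1 lower, with a median of 0.15. DUSP1 was at 11.84 on both 5-NA arrays and at 10.62 and 10.67 in control (1.2). DUSP5 was at 8.89 and 8.45 against 7.58 and 7.49 (1.13), DUSP4 at 0.66, and the RAS pathway inhibitors SPRED2 and SPRED1 at 0.78 and 0.61. SPRED1 lost its call without control replicate 2 (adjusted p = 0.0518 from limma), where 4 members were higher. SPRY1 was the lower member (-0.33) and passed in none of the fits without 1 array.

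Several secreted factors were higher. Of 24 growth factors and cytokines 8 were higher and none lower, with a median of 0.22. HBEGF, a ligand of the EGF receptor, was at 10.04 and 9.62 with 5-NA and at 8.31 and 8.37 in control (2.81-fold). ADM, the vasodilator adrenomedullin, was at 11.69 and 11.72 against 10.35 and 10.31 (2.59-fold), and VEGFA at 10.48 and 10.46 against 9.42 and 9.34 (2.12-fold). INHBE, an inhibin subunit, was at 6.29 and 6.12 against 5.16 and 5.42 (0.92). Without control replicate 2 the higher members numbered 5. ADM and VEGFA are also hypoxia-response genes, of which 5 of 24 were higher and 1 lower, with a median of 0.05. The lower one was LOX, a collagen cross-linking enzyme, at 7.81 and 7.8 against 8.64 and 8.62 (-0.83). The higher hypoxia genes numbered 2 or 3 without any 1 of the 4 arrays, and ANKRD37 (0.44) and PFKFB3 (0.31) were among those that lost their call (adjusted p = 0.0778 to 0.233 from limma in the fits that lost it).

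Targets of p53 moved unevenly. Of 24 measured, 13 were higher (54.2%, beside 7.87% of all genes), 4 past 2-fold, and 2 lower (8.33%, beside 10.9%), with 9 members below 0. The median was 0.43, and 0.26 when each gene took the median of all its probe sets. CDKN1A, the cell cycle inhibitor p21, was at 11.38 and 11.13 with 5-NA and at 10.04 and 10.05 in control (2.31-fold). PLK2 and PLK3, stress-induced kinases, were at 9.15 and 8.67 against 7.51 and 7.47 (1.43) and at 8.87 and 8.69 against 7.8 on both control arrays (0.98). In the GADD45 family GADD45A was at 12.53 and 12.59 against 10.98 and 10.99 (2.98-fold), GADD45B rose 5.22-fold, GADD45G was at 8.26 and 8.36 against 7.67 and 7.65 (0.65), and GADD45GIP1, a binding partner, was at 0.09. BAX and DDB2, which p53 is known to raise, were the 2 lower members at -0.4 and -0.56, and 1 lower member passed without any 1 of the 4 arrays. Whether p53 took part was not tested in these cells, where the large T antigen is present.

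Genes of cell death showed rises on both the death and the survival side. Of 16 BCL2 family genes 4 were higher (25%, beside 7.87% of all genes) and 2 lower (12.5%, beside 10.9%). Their median was 0.06. BIK, a BH3 gene that promotes death, was at 9.08 and 9.02 with 5-NA and at 8.05 and 7.95 in control (2.06-fold). BCL2L11 (BIM), of the same kind, was at 10.93 on both 5-NA arrays against 9.96 and 9.9 (2.0-fold). Other BCL2L11 probe sets rose past both thresholds, with log2 fold changes of 1.31, 1.31 and 1.14. PMAIP1, the gene of NOXA, was at 12.88 and 12.62 against 12.17 and 12.18 (0.57, adjusted p = 0.00745 from limma), and the survival gene MCL1 at 12.34 and 12.24 against 11.83 and 11.80 (0.48). BCL2L2 (BCL-W), also a survival gene, was lower at 8.71 and 8.93 against 9.47 and 9.43 (-0.63). PMAIP1 lost its call without either control array or 5-NA replicate 1 (adjusted p = 0.0528 to 0.0593 from limma), and 1 lower member passed without any 1 of the 4 arrays. Of 13 death receptors and their regulators 4 were higher (30.8%, beside 7.87% of all genes), all of them receptors. Only 1 was lower (7.69%, beside 10.9%), and the median was 0.05. TNFRSF10D was at 10.83 and 10.56 against 8.8 and 8.79 (3.73-fold), and TNFRSF10B (DR5), which binds the same ligand and signals death, at 12.42 and 12.51 against 11.48 and 11.54 (1.94-fold). Another probe set of TNFRSF10D rose 2.29-fold, and others of TNFRSF10B rose 2.85-fold and 2.69-fold. Which of these receptor genes rose more thus depended on the probe set. TNFRSF1A (0.54) and FAS (0.4) were smaller, and 2 receptors were left without 5-NA replicate 2 or either control array. FAS did not pass without any 1 of the 4 arrays (adjusted p = 0.0693 to 0.156 from limma), nor TNFRSF1A without either control array or 5-NA replicate 2 (0.0509 to 0.0791). CFLAR (FLIP), an inhibitor of death receptor signals, was the lower member at 8.45 and 8.36 against 8.73 and 8.78 (-0.35). It lay just inside the threshold and did not pass in any of the fits without 1 array.

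Among cell cycle genes, 13 of 30 mitosis and G2/M genes were lower (43.3%) and none higher, with a median of -0.25. KIF20A, a kinesin of cell division, was at 10.88 and 10.77 with 5-NA and at 11.46 and 11.52 in control (-0.66). CENPA, the centromere histone, was at 9.81 and 9.91 against 10.47 and 10.54 (-0.65). Cyclin B1 (CCNB1) and the Aurora kinases AURKB and AURKA were at -0.57, -0.55 and -0.54. All 5 were called, and none reached 2-fold. Of 33 DNA replication genes 9 were higher and 8 lower, with a median of -0.14 and 20 members below 0. CCNE2 and CCNE1, the E cyclins, were at 11.20 and 11.05 against 10.18 and 10.23 (0.92) and at 11.46 and 11.40 against 10.62 and 10.53 (0.86). ORC6, of the origin recognition complex, was at 11.73 and 11.72 against 10.86 and 10.85 (0.87). The licensing factors CDC6 and CDT1 were at 0.82 and 0.76. The lower ones that changed most were the polymerase subunit genes POLA2 (-0.55) and POLE2 (-0.53), MCM7 of the replicative helicase (-0.51) and RFC4 of the clamp loader (-0.51), named after their values were seen. The counts fell when an array was left out: without 5-NA replicate 1, 5-NA replicate 2, control replicate 1 and control replicate 2 there were 8, 7, 8 and 6 lower mitosis genes and 5, 4, 3 and 3 lower replication genes. Without 5-NA replicate 1 or either control array 5 replication genes were higher. The share of cells in each phase was not measured, and fewer cells in a phase and less RNA per cell cannot be told apart in bulk samples.

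**Figure D3:**
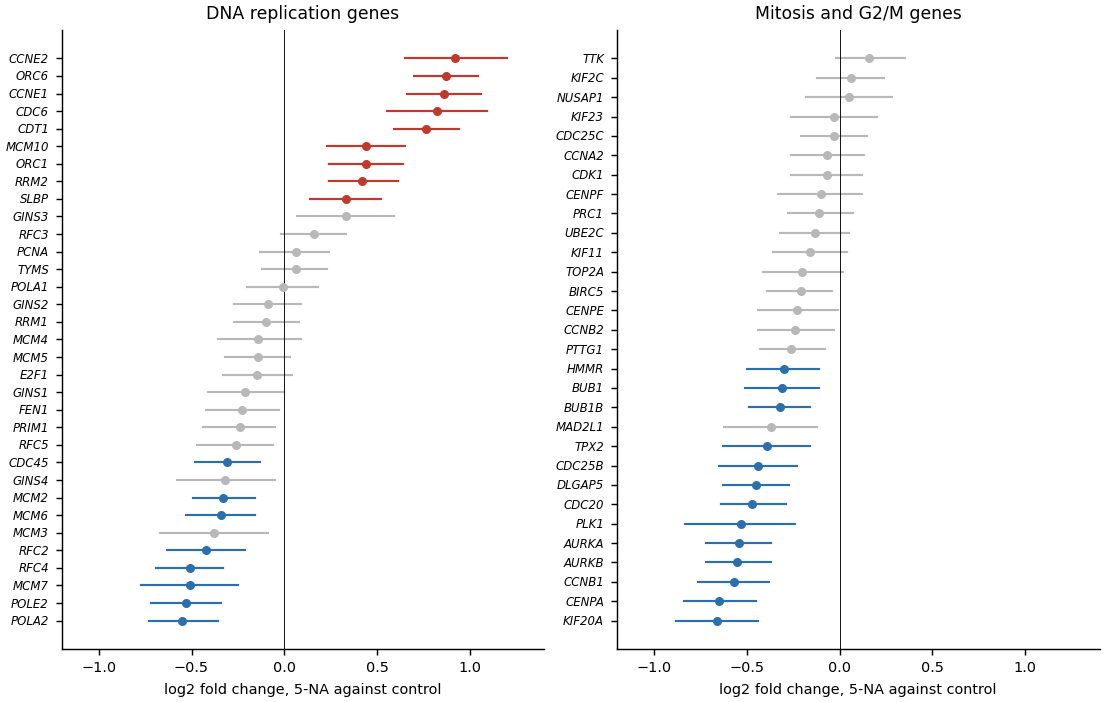
Log2 fold change of 5-NA against control with its 95% interval for 33 DNA replication genes (left) and 30 mitosis and G2/M genes (right), red where a gene was higher and blue where it was lower at an adjusted p under 0.05, grey otherwise. The replication genes run from 0.92 (CCNE2) to -0.55 (POLA2), whereas the mitosis genes that passed all lie below 0, to -0.66 (KIF20A).

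DNA damage repair genes had no member that passed as higher, though 5 lay above 0. Of 28 measured 6 were lower (21.4%, beside 10.9% of all genes), with a median of -0.15 and 23 members below 0. FANCF, of the Fanconi anaemia core complex, was at 8.73 and 8.8 with 5-NA and at 9.4 and 9.42 in control (-0.64). ERCC2 (XPD), a helicase of nucleotide excision repair, was at -0.51, CHEK2, a checkpoint kinase, at -0.49, NBN, which senses double-strand breaks, at -0.44, and XRCC1, of base excision repair, at -0.39. Without control replicate 1 and control replicate 2, 2 and 3 genes passed, and 4 without either 5-NA array. The calls lost were those of CHEK2, NBN and XRCC1 among the genes named (adjusted p = 0.0521 to 0.115 from limma).

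Many histone genes rose. Of 35 measured core and linker histone genes 20 passed the test, 7 of them past 2-fold, and 15 did not, with values from 0.07 to 2.04 and a median of 0.44. H2AC6 was at 9.29 and 8.84 with 5-NA and at 7.21 and 6.84 in control (4.11-fold). Of the H2B genes, H2BC9 was at 9.29 and 9.3 against 7.92 and 7.9 (2.61-fold), H2BC6 at 11.08 and 11 against 9.76 and 9.73 (2.45-fold), H2BC5 at 9.96 and 9.91 against 8.66 and 8.65 (2.43-fold) and H2BC12 at 13.02 and 13.12 against 11.94 and 11.92 (2.2-fold). The duplicates of these H2B genes were close, whereas those of H2AC6 lay further apart in both groups. Histone genes are near copies of each other, and probe sets ending in _x_at or _s_at can share their signal, so the members are not independent. Without control replicate 1, 13 were higher, and 15 without any other of the 4 arrays. Most histone messengers end in a stem-loop without a poly(A) tail. Ribosomal RNA has none either, and most of its probe sets were higher. The 28S control probe sets for the 5' end and the middle were higher by 1.39 and 1.22, at 14.02 and 14.04 against 12.66 and 12.62 for the first, and that for the 3' end was at 0.15 (adjusted p = 0.305 from limma). Those of 18S were at 1.05, 0.69 and 0.52 from the 3' end to the 5' end, of which the last missed the test (adjusted p = 0.0694 from limma). Spiked bacterial controls of the hybridisation did not pass the test against control cells. Those of BioB, BioC and BioD nevertheless lay higher on both 5-NA arrays than on both control arrays, by 0.21 to 0.53. BioB 3' was at 10.32 and 10.84 against 10.01 and 10.07 (0.53, adjusted p = 0.0707 from limma). With 5-NA it was also higher than with EerI (0.6, adjusted p = 0.0497 from limma). The part of RNA preparation and labelling in the histone result was not tested.

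By representative probe sets, no listed ribosomal protein gene passed the test. The 28 ribosomal protein genes lay between -0.02 and 0.09 and none had an unadjusted p under 0.05 in limma. Their mean values were all at least 13.65, near the top of the array's range (15.17 to 15.24 on these arrays for the Alu control probe set), and saturation was not tested. Dimmer probe sets of RPL37, which do not represent their gene and were named after their values were seen, rose past both thresholds. The first was at 11.15 and 10.93 with 5-NA against 9.77 and 9.85 (1.23), and another at 10.67 and 10.66 against 9.59 and 9.49 (1.12). Of 26 RNA polymerase I and ribosome assembly genes 2 were higher (7.69%, beside 7.87% of all genes) and 4 lower (15.4%, beside 10.9%). Their median was 0.01. RRN3, the initiation factor of RNA polymerase I, was higher at 9.34 and 9.32 with 5-NA against 8.76 and 8.8 (0.55). RRS1 (-0.44), UBTF (-0.4), NAT10 (-0.36) and NOP14 (-0.29) were lower, and at most 1 lower member passed without any 1 of the 4 arrays. Among 32 nuclear genes of the respiratory chain none was higher and 3 lower (9.38%, beside 10.9% of all genes), ATP5MC1 (-0.53), NDUFV2 (-0.44) and SDHC (-0.33), with a median of -0.09, of which 1 or 2 passed without any 1 of the 4 arrays. Of the 7 mitochondrially encoded genes, COX1, COX2, ATP6, ND2 and ND4 had values of at least 14.38, also near the top of the range, so no stability is read from their values. COX3, below that range, was at 10.27 and 10.36 against 9.97 and 10.26 (0.2, adjusted p = 0.302 from limma). ND6, which is transcribed from the other strand of the mitochondrial genome, was at 11.42 and 11.33 against 12.20 and 12.06 (-0.76), a call lost without control replicate 1 or either 5-NA array (adjusted p = 0.0506 to 0.0776 from limma).

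Sterol and fatty acid synthesis genes had 3 of 19 members lower (15.8%, beside 10.9% of all genes) and none higher, with a median of -0.19. ELOVL6, a fatty acid elongase, was at 9.56 and 9.45 with 5-NA and at 10.20 and 10.18 in control (-0.69). LSS, which makes lanosterol, was at -0.48, and SQLE, which makes its precursor, at -0.46, with the call of SQLE lost without either control array or 5-NA replicate 2 (adjusted p = 0.0724 to 0.0914 from limma). Interferon-induced genes did not follow IFIT1 as a group. Of 27 measured 4 were higher (14.8%, beside 7.87% of all genes) and 3 lower (11.1%, beside 10.9%), with a median of 0.04. IFI35 was at -0.56 and IFIT5 at -0.48, while the factors IRF1 and IRF7 were at 8.97 and 8.75 against 8.08 and 7.98 (0.83) and at 8.75 and 8.92 against 8.1 and 8.07 (0.75). IFIT5 lost its call without either control array or 5-NA replicate 2 (adjusted p = 0.069 to 0.0889 from limma), and 2 genes were higher without either control array. Of 19 NF-kappaB regulators and targets 3 were higher, CXCL3 (0.47), NFKBIE (0.42) and RELB (0.38), and none passed without 5-NA replicate 1, control replicate 1 or control replicate 2, and 1 without 5-NA replicate 2.

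**Figure D4:**
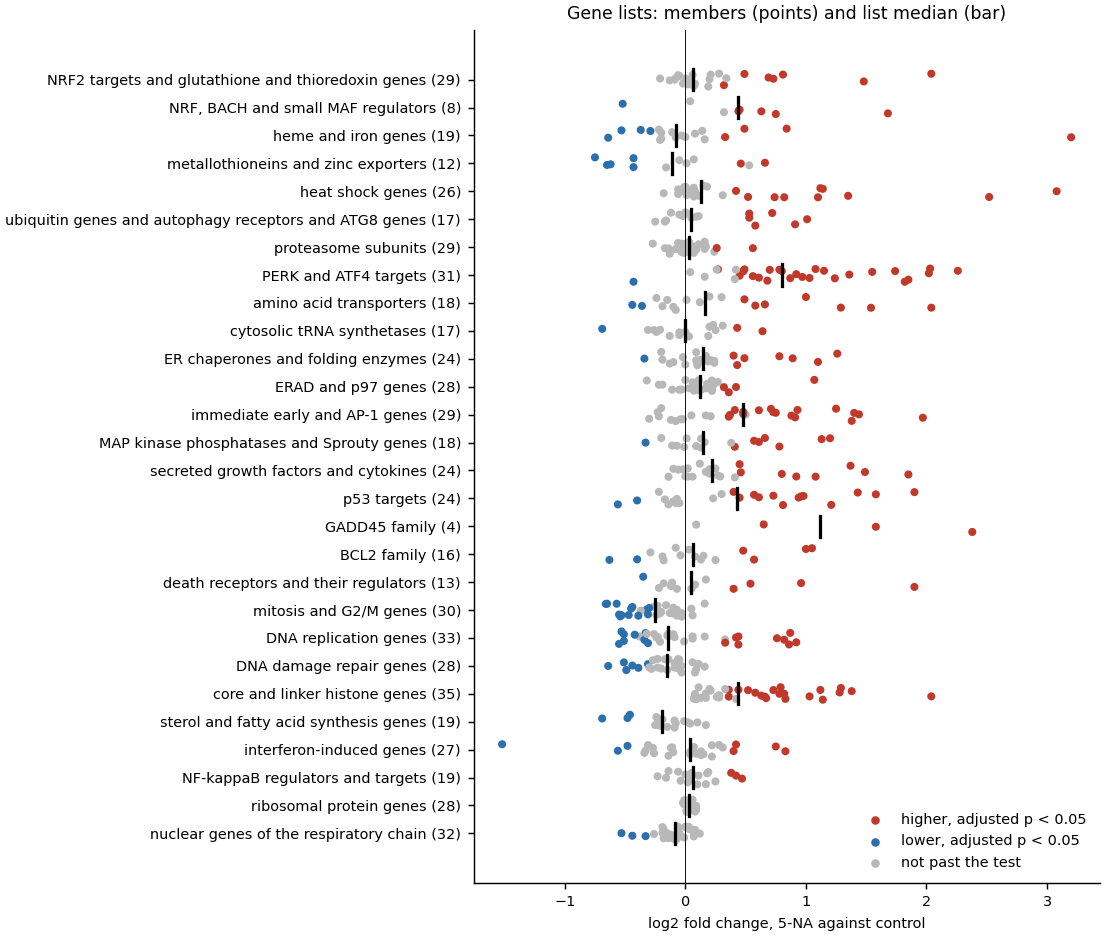
Log2 fold change of 5-NA against control for the measured members of 28 gene lists (number measured in parentheses), 1 point per gene by its representative probe set, red or blue where higher or lower at an adjusted p under 0.05, grey otherwise, with the list median as a bar. The PERK and ATF4 targets (median 0.8) and the histone genes (0.44) lie to the right of 0, the mitosis genes (-0.25) to the left, and the ribosomal protein genes, all near the top of the range, between -0.02 and 0.09.

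Enzymes that act on aldehydes, carbonyls and nitro groups, some of which 5-NA carries, moved both ways. Of 26 measured 2 were higher (7.69%, beside 7.87% of all genes) and 4 lower (15.4%, beside 10.9%), with a median of -0.11. ALDH8A1, a retinal dehydrogenase, was at 7.78 and 7.45 with 5-NA and at 6.04 and 5.96 in control (3.06-fold, adjusted p = 0.000356 from limma). POR, which passes electrons to P450 enzymes and can reduce nitro groups, was at 0.27 and was named after its values were seen. ALDH1B1 was at 8.74 and 8.57 against 9.37 and 9.35 (-0.71), CBR4 at -0.44, ALDH5A1 at -0.37 and GSTA4, which conjugates lipid aldehydes, at -0.33. Without control replicate 1 none of the lower members passed, and 1, 2 and 3 passed without control replicate 2, 5-NA replicate 2 and 5-NA replicate 1. ALDH8A1 was the higher member that passed in every fit without 1 array.

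Direct comparisons of the treated arrays show where 5-NA differed from the other compounds at the same dose and time. EerI has an aromatic part besides the nitrofuran-containing part to which 5-NA corresponds. The 2 comparisons share the 5-NA arrays. Against EerI, 196 probe sets were higher (0.358%) and 73 lower (0.134%) with 5-NA past both thresholds, and against CBU-028 116 (0.212%) and 43 (0.0786%). At the adjusted p alone, 7.93% and 6.47% of genes were higher and 9.66% and 7.33% lower in the 2 comparisons. The lower count against CBU-028 depended on its arrays: 25 probe sets were lower without CBU-028 replicate 1 and 106 without its replicate 2.

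Heat shock genes were higher with 5-NA than with either compound, 8 of 26 in each comparison and none lower. HSPA6 was at 7.29 and 7.16 with EerI and at 6.96 and 7.2 with CBU-028, against 10.16 and 9.73 with 5-NA, a difference of 2.72 and 2.86 (adjusted p = 8.24e-05 and 0.000116 from limma). HSPA2 was higher by 1.33 and 1.73. Immediate early genes were higher in 16 of 29 against EerI and 13 of 29 against CBU-028, with 2 and 3 lower. FOS differed by 1.98 and 1.15, and IER3 by 1.8 and 1.66. Histone genes were higher in 21 and 12 of 35 and lower in none. TNFRSF10D differed by 2.09 and 2.17, and the MAFF probe set named above was at 4.71 and 4.84 with EerI and at 5.92 and 6.25 with CBU-028, against 8.99 and 8.53 with 5-NA.

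The amino acid side of the response went the other way. PERK and ATF4 targets were lower with 5-NA than with EerI in 14 of 31 (4 higher) and than with CBU-028 in 19 of 31 (2 higher), with median differences of -0.3 and -0.57. CHAC1 was lower by 1.54 than with CBU-028 (difference -1.54, adjusted p = 0.000743 from limma), and INHBE was lower by 1.33 and 1.29 than with EerI and CBU-028 (differences -1.33 and -1.29). Of 17 tRNA synthetases 10 and 9 were lower and none higher, and of 18 amino acid transporters 4 and 5 were lower and none higher. SLC7A11 was lower with 5-NA by 0.86 and 0.84 (differences -0.86 and -0.84). PPP1R15A was an exception, higher by 1.1 and 0.55. Mitosis genes were lower with 5-NA than with EerI in 7 of 30 and none was higher, whereas 9 were higher than with CBU-028 and none lower. For several genes the compounds were not distinguished. The difference from EerI was -0.02 for VEGFA and -0.09 for SLC3A2, and that from CBU-028 was -0.02 for GADD45A and 0.1 for SESN2. A missed threshold there does not show that the compounds act alike.

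**Figure D5:**
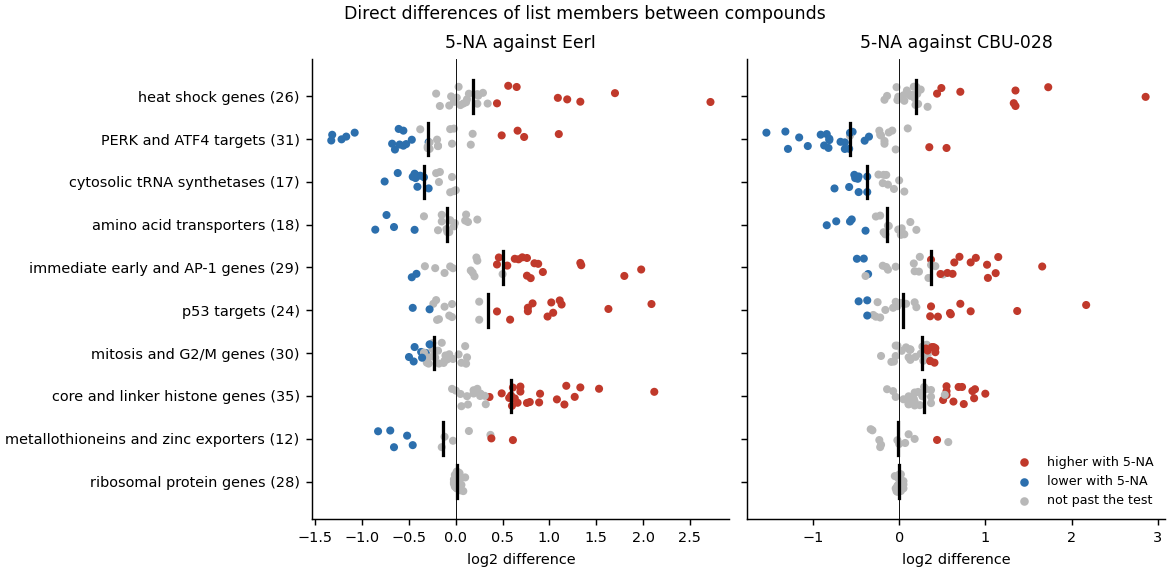
Log2 difference between 5-NA and EerI (left) or CBU-028 (right) for the measured members of 10 gene lists (number in parentheses), 1 point per gene, red or blue where 5-NA was higher or lower at an adjusted p under 0.05, grey otherwise, with the median as a bar. Heat shock genes reach 2.72 and 2.86 (HSPA6), the PERK and ATF4 targets have medians of -0.3 and -0.57, and the mitosis genes lie on opposite sides with medians of -0.23 and 0.26.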

How the data were processed

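RNA samples of 293T cells were hybridised to 8 Affymetrix arrays, 2 per group. The authors deposited log2 values per probe set, made by RMA (background correction, quantile normalisation and median polish); software versions are not given in the sources used here. Probe sets were named through the platform annotation, with symbols checked through gene identifiers (none changed), and 41097 had 1 symbol, 1801 several and 11777 none. A limma model (version 3.58.1, R 4.3.3) took in the 4 groups of 8 arrays. Its residual degrees of freedom were 4 and its prior ones 5.08, and p-values were adjusted by Benjamini-Hochberg over all 54675 probe sets. Genes named include the 12 largest changes in each direction among those past both thresholds whose groups did not overlap. Others are up to 5 changed members of each gene list by size, or all members of lists of at most 10. VCP, ATF3, ATF4, PMAIP1, DERL1 and NSF were added, with genes whose probe sets disagree. BAX, CBS, DDB2, NCOA4, SIL1, SLC38A4, SLC7A2, SPRY1, the zinc finger genes and the genes named for a promoter match only were named after their values were seen. The gene lists and members were chosen with earlier results of these data known. Alternatives covered thresholds, floors, normalisation, the fit and each array left out. The script was tested on simulated data. Promoters are 250 bases of RefSeq (GRCh38.p14). Figures used Python 3.11.15 and matplotlib 3.10.9.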

Additional observations from a re-analysis of the deposited data

How the results depend on the processing

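Counts of changed probe sets depended mainly on the fold threshold. At 1.5-fold, 1384 were higher and 1044 lower with 5-NA than in control, 1225 and 972 against EerI, and 925 and 671 against CBU-028. With no fold threshold these were 4000 and 4318, 3787 and 3872, and 3014 and 2785, and the share of calls that were higher than control went from 78.8% to 57% at 1.5-fold and 48.1% with none. With 1 probe set per gene, that of highest mean, the counts were 105 and 33, 94 and 33, and 59 and 18. Counted by any probe set with 1 symbol, 169 genes were higher and 57 lower than in control. A floor at 7 left 48 lower than with EerI, and the cause was not tested. Without 1 array the counts against control ran from 241 to 302 higher and 59 to 95 lower, and those lower than with CBU-028 from 25 to 106. Deviations of replicate 1 from its group mean were hardly correlated between 5-NA and control (-0.0229), and the other groups were not examined in this way. A replicate block over all arrays gave 264 and 71 against control, 196 and 73 against EerI and 116 and 42 against CBU-028. Genes near 0 changed sign. ATP6 was at -0.02 after renewed quantile normalisation. Without 1 array, ATP6 ran from -0.02 to 0.06, ND2 from -0.03 to 0.05, LHX1 from -0.04 to 0.09, KEAP1 from 0.00 to 0.08, VIM from 0.00 to 0.08, GADD45GIP1 from -0.01 to 0.20, COX1 from -0.06 to 0.01 and COX2 from -0.02 to 0.00. Of 182 named genes past the threshold, 124 stayed past it in every setting. With 2 arrays in each group, small changes could be missed at this precision, although some passed, such as ADRM1 at 0.26.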

Other observations

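Zinc finger genes named ZNF, a large family of mostly repressive transcription factors, were more often higher than lower with 5-NA. Of 425 measured, 92 were higher (21.6%) and 35 lower (8.24%), with a median of 0.07, beside 7.87% and 10.9% of all genes and a median of -0.03. The values ran from -0.85 (ZNF599) to 1.25 (ZNF451), and ZNF557 (1.22) and ZNF473 (1.15) were the others past 2-fold. Without 5-NA replicate 1, 5-NA replicate 2, control replicate 1 and control replicate 2 there were 66, 76, 55 and 50 higher and 17, 24, 9 and 14 lower. This list was drawn up by symbol after earlier results of these data were known.

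Of 18 transcription elongation genes 7 were higher and 3 lower. AFF4, a scaffold of the super elongation complex, was at 0.69, and at 1.28 by another probe set. CCNT1, the cyclin of P-TEFb, was at 0.54 and ELL3 at -0.80. The higher ones numbered 2 to 4 without any 1 of the 4 arrays, and the lower ones 1 or 2. Of 17 splicing factors and CLK kinases 4 were higher and 1 lower, led by CLK1 (0.61) and CLK3 (0.50), kinases of splicing factors, and 2 or 3 were higher without any 1 of the 4 arrays. Among 18 feedback genes of BMP, TGF-beta and Notch signals 5 were higher and 5 lower, with the BMP decoy receptor BAMBI at 0.94 and the inhibitor SMAD6 at -0.71, and without control replicate 2 there were 2 and 3. Of 16 Hippo pathway genes 4 were higher and none lower, with the target CCN2 at 0.88 and the kinase LATS2 at 0.85, and 2 were higher without control replicate 2.

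Of 14 circadian clock genes 3 were higher and 4 lower. DBP, an output factor of the clock, was at -0.82 and NFIL3, which opposes it, at 0.59. Without 5-NA replicate 1 and control replicates 1 and 2 there were 1, 2 and 1 higher and 2, 2 and 3 lower. Of 11 polyamine genes 3 were higher and 2 lower, with the catabolic enzymes SMOX and SAT1 at 0.75 and 0.63, and at most 1 was lower without any 1 of the 4 arrays. Of 5 host genes of small nucleolar RNAs SNHG17 (1.26), ZFAS1 (0.74) and EPB41L4A-AS1 (0.50) were higher and SNHG4 (-0.99) was lower, in every fit without 1 array.

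Probe sets of some genes moved in opposite directions past the test. CTBP1, a corepressor, had 1 at 1.02 and others at -0.45 and -0.36. ASXL1, a Polycomb-associated gene, had probe sets from 1.10 to -0.27, and PHIP, a bromodomain gene, from 1.14 to -0.31. Which transcripts these probe sets read was not tested.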
